A study of Mus musculus with 8 samples.

Results

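Melanocytes are the pigment cells of the hair follicle, and the 10 genes described here are those by which they are commonly recognized. They comprise 3 lineage factors (Mitf, Sox10 and Kit) and 7 genes that make or build the pigment organelle (Tyr, Tyrp1, Dct, Pmel, Mlana, Slc45a2 and Oca2). They were chosen by gene name, and all 10 were found among the 18770 genes of the table. Melanin is made in the melanosome, an organelle in which an oxidation of tyrosine by tyrosinase starts the synthesis and a fibrillar protein carries the deposited pigment. In the skin of pigmented mice the follicular melanocytes are silent in the resting phase of the hair cycle and make melanin during anagen, the growth phase. The transcription factor MITF is known to drive many of the pigment genes, SOX10 acts upstream of it, and the receptor KIT is needed for melanocyte survival and migration.

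The libraries came from dorsal skin of male wildtype C57BL/6 mice (C57BL/6J in the study) of 7 to 8 weeks whose hair had been depilated. The AP group (n = 4) received Alpinetin, a plant flavonoid, dissolved in 65% ethanol to 3 mg/ml, and the vehicle control group (VC, n = 4) the ethanol alone, each in 20 µl. Both were applied to the skin once a day from 24 h after depilation, and skin was taken on day 4. The epidermis between follicles was taken off, and mRNA of the remaining skin was sequenced. The libraries of a group are numbered as in the table (VC.1, AP.1 and so on), and values of single libraries are listed in that order. There were 4 mice in each group, and the columns of the table carry no mouse identifier.

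Expression is given as normalized counts, that is reads per gene divided by 1 size factor per library. The listed genes held 6454563 to 7264151 reads per library for VC and 8507783 to 11190113 for AP. Reads of the 13 genes encoded in the mitochondrial genome made up 48.4% ± 5.81 (SD, n = 4) of the total for VC and 8.66% ± 2.63 (SD, n = 4) for AP, with no overlap. A count of 3 reads, taken as the floor, was worth 4.10 to 5.63 normalized counts with vehicle and 1.49 to 2.18 with AP. Log2 fold changes (AP over VC) were computed on log2(normalized count + 1) and were tested with limma, with Benjamini-Hochberg adjustment over the 15964 genes tested, each with 3 or more normalized counts in 4 or more libraries. All 10 melanocyte genes passed this filter.

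The comparison of AP with VC asked whether the melanocyte transcripts differed between the treated and the vehicle skin on day 4. Mitf, Tyr, Pmel and Mlana fell in the AP group (limma, adjusted p under 0.05), which was 4 of 10 genes, whereas 4.0% of all genes tested were lower by the same rule. None of the 10 rose by limma, whereas 6.33% of all genes tested did, and none was higher at an unadjusted p under 0.05 or with edgeR or DESeq2. By the criteria of the study (fold change over 1.5 with an unadjusted p under 0.01), here and below applied to limma's p, the same 4 genes were lower, against 5.32% of all genes lower and 8.26% higher. With DESeq2, 5 of the 10 genes were lower by these criteria and also by its adjusted p under 0.05. By that adjusted p, 7.43% of all genes were lower and 8.88% higher, and no share by the criteria of the study is given for DESeq2. The median log2 fold change was -1.0 over the 7 pigment genes, which was the value of Oca2, the least abundant of them, and -0.51 over the 3 lineage factors, beside 0.06 over all genes tested. With scaling by total counts, which shifted the median of all genes by 0.84, these medians were -0.25 and 0.36, only Mlana was lower and Kit was higher (0.91, adjusted p = 0.0300 from limma), beside 0.438% of all genes lower and 54.2% higher. Relative to the median of all genes, none of the 10 values moved by more than 0.09 with this scaling. That follows from the arithmetic, since 1 factor per library shifts all genes nearly alike, and it is no check of the calls. In bulk tissue, fewer melanocytes and less RNA per melanocyte cannot be told apart.

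VC.4 was the lowest VC library in 6 of the 7 pigment genes, all but Mlana. The 7 pigment genes summed to 4280, 3291, 3853 and 1324 normalized counts with vehicle and to 1237, 1505, 2002 and 1137 with AP. The sum of VC.4 thus lay inside the range of the AP libraries. Without VC.4, the median log2 fold change of the pigment genes was -1.74, and 5 of the 10 genes were lower (limma, adjusted p under 0.05), namely Tyr, Tyrp1, Dct, Pmel and Mlana, beside 2.96% of the genes tested in that fit. When any other library was left out, only Mlana was lower by this rule, beside 0.611% to 5.17% of the genes tested. VC.4 was singled out for its low values in these genes, so larger differences without it follow from that choice. The groups did not overlap in 2 of the 10 genes (Mitf and Mlana, AP below VC, beside 8.91% of all genes tested) with all 8 libraries. None of the 10 had all AP libraries above all VC libraries, beside 10.3% of all genes tested.

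**Figure D1:**
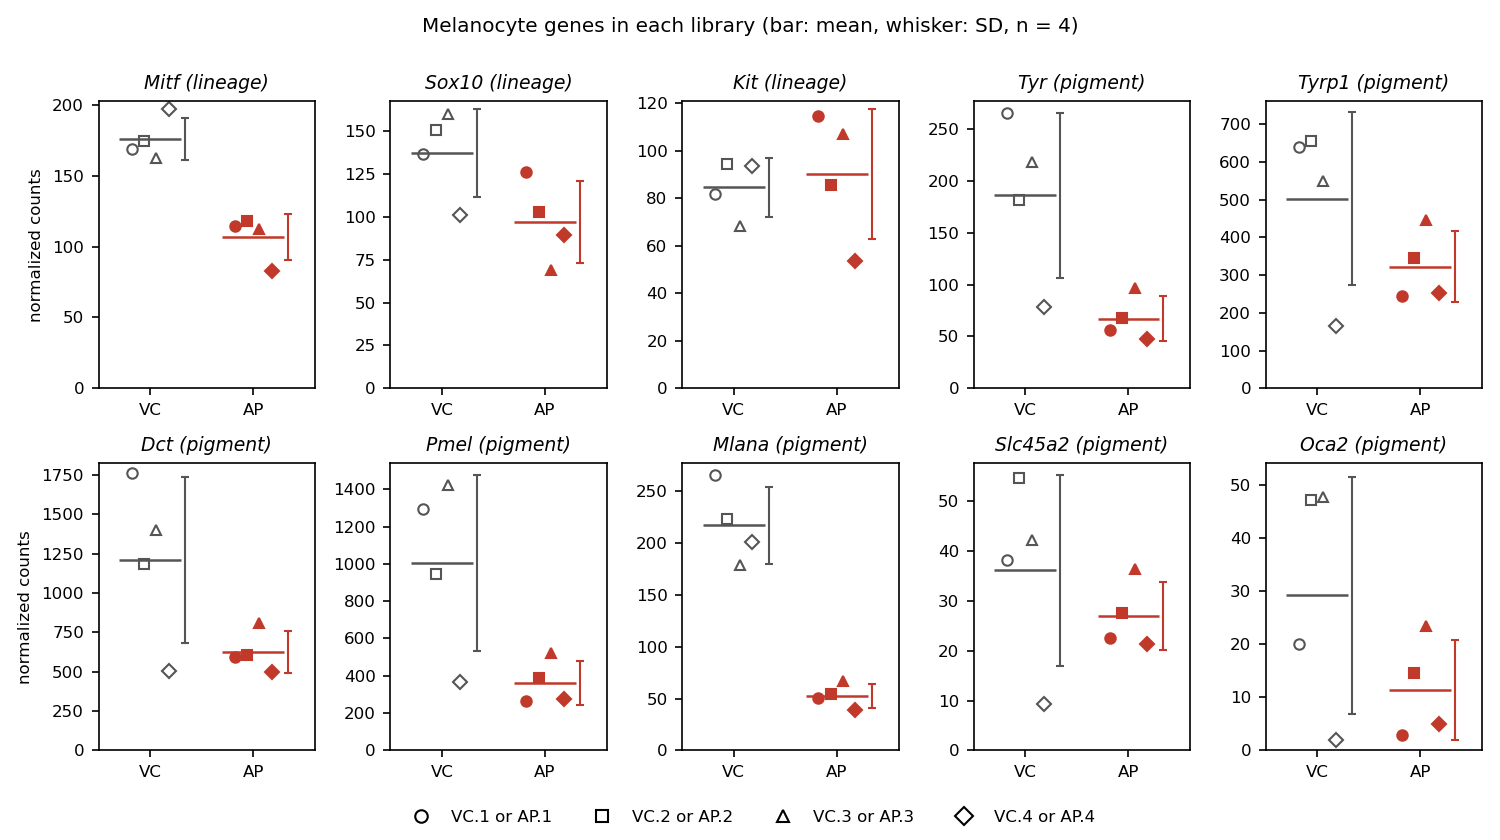
Normalized counts of the 10 melanocyte genes in each VC library (open grey symbols) and AP library (filled red symbols), 1 panel a gene, each vertical axis starting at 0. The symbol shape gives the number of the library within its group, horizontal bars are means and whiskers are SD (n = 4). For Mlana the AP libraries lay at 38.6 to 66.8 and the VC libraries at 179 to 266, whereas for Tyr, Dct and Pmel VC.4 (diamond) lay among or near the AP libraries.

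Among the lineage factors, Mitf (ENSMUSG00000035158, plus strand of mm10 at chr6:97807052-98021349) encodes the transcription factor at the head of the pigment program. It had 169, 174, 162 and 197 normalized counts with vehicle and 115, 118, 113 and 83.0 with AP. All 4 AP libraries were below the lowest VC library, and VC.4, the library low in 6 pigment genes, had the highest Mitf value. Mitf fell by 0.72 on the log2 scale (SE 0.20, adjusted p = 0.0427 from limma), and 176 ± 14.9 compared with 107 ± 16.2 (SD, n = 4 each) gave a ratio of 1.64. This call depended on each of the 8 libraries, since leaving out any 1 of them gave an adjusted p of 0.0525 to 0.119 with log2 fold changes of -0.77 to -0.60, and with scaling by total counts the value was 0.15. The counts pool all Mitf isoforms, of which the melanocyte form is one.

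Sox10 (ENSMUSG00000033006, minus strand at chr15:79154908-79165240), a transcription factor of neural crest derivatives, had 136, 151, 160 and 101.3 normalized counts with vehicle and 126, 103, 69.3 and 89.4 with AP. The ranges overlapped, with VC.4 below AP.1 and AP.2. The difference of -0.51 on the log2 scale (limma, SE 0.25, adjusted p = 0.195) did not pass the threshold. Kit (ENSMUSG00000005672, plus strand at chr5:75574916-75656722), the receptor for stem cell factor, had 81.9, 94.6, 68.3 and 93.8 normalized counts with vehicle and 115, 85.7, 107 and 53.6 with AP. AP libraries were found both above and below the whole VC range. For Kit the difference was 0.05 on the log2 scale (limma, SE 0.28, adjusted p = 0.929), and its sign changed with scaling by the upper quartile (-0.01).

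The 3 members of the tyrosinase family catalyse steps of melanin synthesis. Tyr (ENSMUSG00000004651, minus strand at chr7:87424771-87493512) encodes tyrosinase, the rate-limiting enzyme. It had 266, 182, 218 and 78.8 normalized counts with vehicle and 56.6, 67.9, 96.7 and 47.9 with AP. AP.3 was above VC.4, and the other 3 AP libraries were below every VC library. Tyr fell by 1.37 on the log2 scale (limma, SE 0.37, adjusted p = 0.0400). That p was 0.0162 without VC.4 and between 0.0596 and 0.105 when any 1 of the other 7 libraries was left out, with log2 fold changes of -1.56 to -1.16 in those 7 fits, and the log2 fold change was -0.51 with scaling by total counts.

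Dct (ENSMUSG00000022129, minus strand at chr14:118012790-118052244) encodes dopachrome tautomerase, which is also made by melanoblasts. Its normalized counts were 1759, 1184, 1397 and 503 with vehicle and 593, 607, 812 and 495 with AP. VC.4 lay just above AP.4 and below the other AP libraries, whereas the remaining VC libraries were above all of them. On the log2 scale the difference was -0.83 (SE 0.33, adjusted p = 0.115), and without VC.4 it was -1.21 (adjusted p = 0.0174 from limma). DESeq2 called Dct lower with all 8 libraries (-0.95, adjusted p = 0.0359). Tyrp1 (ENSMUSG00000005994, plus strand at chr4:80834123-80851719), whose product acts late in eumelanin synthesis, had 640, 656, 549 and 165 normalized counts with vehicle and 246, 346, 447 and 252 with AP. VC.4 was below all 4 AP libraries, which were below the other 3 VC libraries. The log2 fold change of Tyrp1 (limma) was -0.50 with an SE of 0.40 (adjusted p = 0.425), and -0.97 without VC.4 (adjusted p = 0.0344 from limma). With scaling by total counts the values were 0.04 for Dct and 0.37 for Tyrp1.

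Pmel (ENSMUSG00000025359, plus strand at chr10:128704195-128720238) encodes the protein of the melanosome fibrils. It had 1292, 944, 1420 and 366 normalized counts with vehicle and 265, 388, 520 and 278 with AP. VC.4 lay between the AP libraries, and the other VC libraries were above them. Pmel fell by 1.35 on the log2 scale (SE 0.38, adjusted p = 0.0462 from limma), with an adjusted p of 0.0117 without VC.4 and between 0.0717 and 0.116 when any 1 of the other 7 libraries was left out, where the log2 fold changes were -1.54 to -1.13. With scaling by total counts Pmel was at -0.48 (adjusted p = 0.351 from limma). The call was also lost with the trend on exon length removed (-1.13, adjusted p = 0.103 from limma). Without the filter on low values the adjusted p was 0.0501 from limma. Its exons share 105 bases with Dgka and 34 with Cdk2 on the opposite strand, and strand use in counting is not given in the sources used here. The log2 fold changes of these neighbours were -0.30 for Dgka (adjusted p = 0.466) and 0.11 for Cdk2 (adjusted p = 0.807).

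Mlana (ENSMUSG00000024806, plus strand at chr19:29697824-29708634) encodes a melanosomal membrane protein that binds PMEL during melanosome maturation. Its normalized counts were 266, 223, 179 and 201 with vehicle and 50.8, 54.5, 66.8 and 38.6 with AP. The highest AP library was far below the lowest VC library, and VC.4 lay within the range of the other VC libraries. Mlana fell by 2.03 on the log2 scale (SE 0.24, adjusted p = 0.00237 from limma), from 217 ± 37.1 to 52.7 ± 11.6 (SD, n = 4 each), a ratio of 4.12. Of all genes tested, 0.65% had a lower log2 fold change. Its adjusted p stayed between 0.00228 and 0.00977 when each of the 8 libraries was left out, and it was lower under all 19 alternatives, at -1.17 with scaling by total counts.

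The transporter genes were the least abundant of the pigment genes. Slc45a2 (ENSMUSG00000022243, plus strand at chr15:11000721-11029233), which supports a permissive pH in the melanosome, had 38.2, 54.7, 42.3 and 9.38 normalized counts with vehicle and 22.5, 27.5, 36.4 and 21.5 with AP. Only VC.4 was below the AP libraries. On the log2 scale the difference was -0.20 (SE 0.52, adjusted p = 0.823), -0.73 without VC.4 (adjusted p = 0.191 from limma), 0.07 without VC.2 and 0.63 with scaling by total counts. Oca2 (ENSMUSG00000030450, plus strand at chr7:56239760-56536518), a melanosomal chloride channel gene, had 20.01, 47.3, 47.8 and 1.88 normalized counts with vehicle and 2.90, 14.6, 23.4 and 5.01 with AP. The ranges overlapped widely, and the value of VC.4 came from 1 read, under the floor. With 1 to 47 reads per library, no difference in Oca2 was called (log2 fold change -1.0, SE 0.92, adjusted p = 0.492 from limma). This value ranged from -1.92 without VC.4 to -0.56 without VC.3 and was -0.25 with scaling by total counts.

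**Figure D2:**
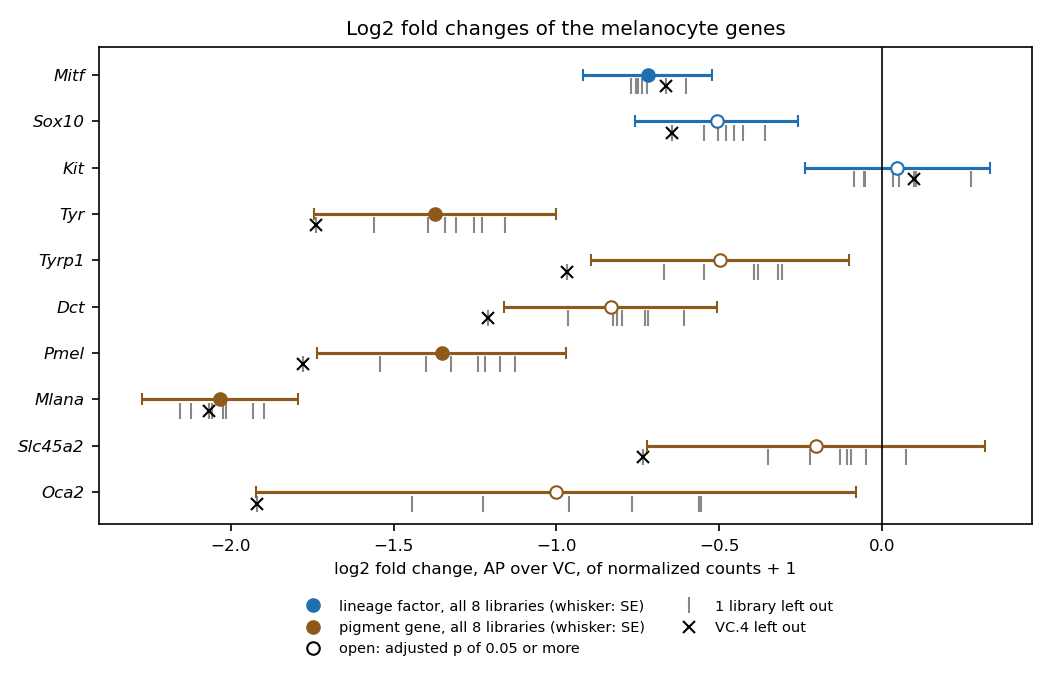
Log2 fold changes (AP over VC, of normalized counts + 1) of the 3 lineage factors (blue) and the 7 pigment genes (brown), with SE, filled where the adjusted p was under 0.05. Vertical ticks give the value with 1 library left out and crosses the value without VC.4, which was the lowest such value for Sox10 and for each pigment gene except Mlana.

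Per kilobase of exon, Pmel had the highest mean of the 10 genes in the VC group, with 439 ± 206 normalized counts per kilobase (SD, n = 4), although in VC.4 Mlana (190 per kilobase) was above Pmel (160 per kilobase). Mlana (205 ± 35.1), Dct (205 ± 89.6) and Tyrp1 (178 ± 81.3) followed, and their levels did not differ beyond their spread. Sox10 (44.9 ± 8.43), Mitf (28.4 ± 2.41) and Tyr (26.2 ± 11.2) formed the next level per kilobase, of which Sox10 was above Mitf by more than their SD and Tyr was not set apart from Mitf. Slc45a2 (12.1 ± 6.43), Kit (9.50 ± 1.39) and Oca2 (7.38 ± 5.65) were the lowest and overlapped. In the AP group Pmel (158 ± 51.6), Tyrp1 (114 ± 33.6) and Dct (106 ± 22.6) led the order per kilobase and overlapped within their spread. Mlana followed there with 49.8 ± 11.0, below Dct by more than their SD. Tyr, with 9.46 ± 2.99 per kilobase, was at the level of Kit (10.1 ± 3.06) and Slc45a2 (9.04 ± 2.28) for AP.

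The ratios of the 6 other pigment genes to Dct were compared, and 3 of them did not overlap between the groups, with AP below VC. Over all other genes tested, the ratio to Dct was lower in this way for 0.332% and higher for 18.1%. Dct itself had a log2 fold change of -0.83, so a lower ratio to it was rare by construction. The 3 ratios were those of Tyr, Pmel and Mlana, the pigment genes already called lower, so their count is not separate from those calls. The ratio of Tyr to Dct normalized counts was 0.151, 0.154, 0.156 and 0.157 with vehicle and 0.0954, 0.112, 0.119 and 0.0968 with AP. It was thus nearly the same in the 4 VC libraries, VC.4 included, and lower in each AP library, although only 42 Tyr reads were behind the value of VC.4. Pmel to Dct was 0.734, 0.798, 1.02 and 0.728 with vehicle and 0.447, 0.639, 0.640 and 0.561 with AP, again without overlap. For Mlana to Dct the ratio was 0.151, 0.189, 0.128 and 0.399 with vehicle and 0.0856, 0.0897, 0.0822 and 0.0780 with AP. VC.4 was the highest of all libraries in this ratio, and the AP libraries were the 4 lowest. Tyrp1 to Dct overlapped, with a mean of 0.410 ± 0.0998 for VC and 0.511 ± 0.0693 for AP (SD, n = 4 each), and so did Slc45a2 to Dct (0.0292 ± 0.0123 and 0.0428 ± 0.00339) and Oca2 to Dct (0.0223 ± 0.0175 and 0.0170 ± 0.0113). These ratios do not depend on the scaling of a library. They were chosen after the values were seen and were not tested.

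**Figure D3:**
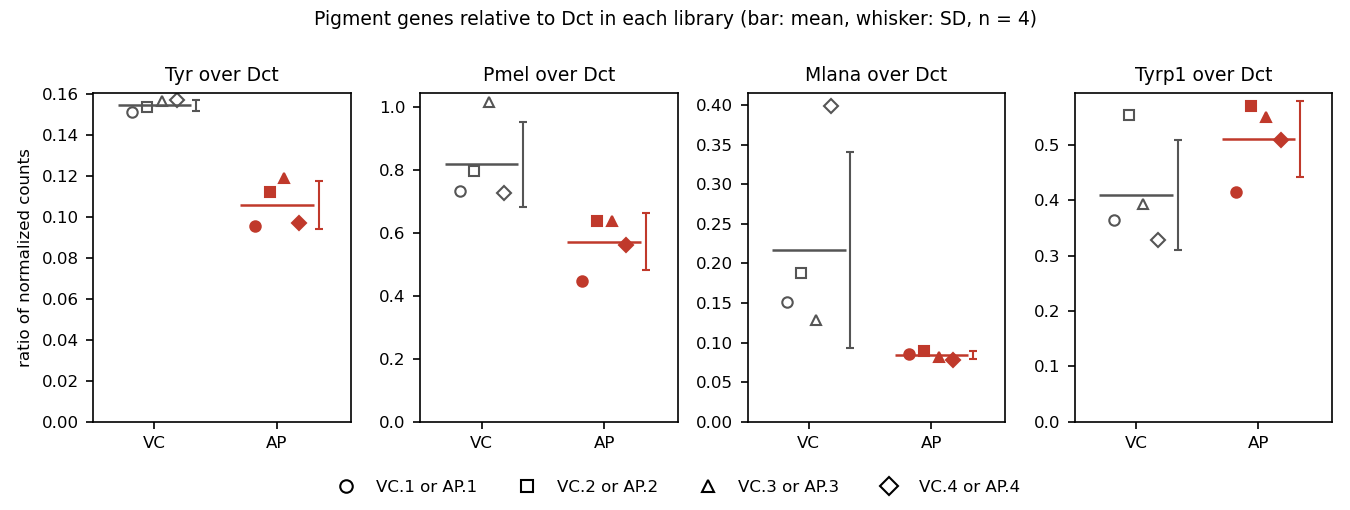
Ratios of the normalized counts of Tyr, Pmel, Mlana and Tyrp1 to those of Dct in each VC (open grey) and AP (filled red) library, with means (bars) and SD (whiskers, n = 4) and vertical axes that start at 0. The VC libraries lay at 0.151 to 0.157 for Tyr to Dct and the AP libraries at 0.0954 to 0.119, and VC.4 (diamond) reached 0.399 for Mlana to Dct.

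Relative to the lineage factors, the summed pigment genes were 25.3, 18.9, 23.7 and 6.72 times Mitf with vehicle and 10.8, 12.7, 17.8 and 13.7 times Mitf with AP. The lowest value was that of VC.4, and the other VC libraries were above all AP libraries. Over Sox10 the same sum had a mean of 22.6 ± 7.54 for VC and 16.5 ± 8.5 for AP (SD, n = 4 each), and the ranges overlapped.

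Across the 8 libraries, the melanocyte genes fell into patterns that are given as a description, since they hold the difference between the groups as well as the spread within them. Pearson's r of log2(normalized count + 1) was 0.99 between Tyr and Pmel, 0.97 between Tyr and Dct and 0.95 between Tyrp1 and Slc45a2. Mlana was most like Mitf, with an r of 0.94, and less like Tyrp1 (0.46) and Slc45a2 (0.22). Kit had an r between -0.12 and 0.29 with the other 9 genes. Among 13296 genes with a mean of at least 20 normalized counts, those most like Dct were Trpm1 (0.98), Gm10401 (0.98), Mt2 (0.97), Gm49425 (0.97) and Tyr (0.97). The nearest to Mitf were Ctxn1 (0.98), Basp1 (0.97), Gstm4 (0.97), Pstpip1 (0.97) and Uckl1 (0.96), and the nearest to Sox10 were Gm14453 (0.98), Rbm38 (0.97), Cox7a1 (0.97), Apod (0.96) and Sln (0.96). Kit was closest to Lbh (0.94), Rtl6 (0.90), Gm17111 (0.87), Zfp580 (0.85) and Cyp27a1 (0.84).

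Other genes of pigmentation were read from 6 lists drawn up by known roles. Of the 15 tested transcription and survival factors that act with Mitf in melanocytes or their precursors, 1 was lower and 0 were higher (limma, adjusted p under 0.05), and the median was -0.27 on the log2 scale. The gene that fell was Zeb2, a zinc finger factor of neural crest cells, with -0.92 (SE 0.16, adjusted p = 0.0108) and 964 ± 166 normalized counts in the VC group against 505 ± 57.6 for AP. Pax3, which acts upstream of Mitf, had 27.7 ± 4.21 and 13.4 ± 3.46 normalized counts without overlap, but its log2 fold change of -1.01 had an adjusted p of 0.115 from limma. Ets1 was higher by the criteria of the study alone (0.78, adjusted p = 0.0654 from limma).

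Of the 11 tested ligands and ligand modifiers on the list, only Csf1, best known as a macrophage growth factor, rose (1.56, SE 0.45, adjusted p = 0.0482 from limma), and the list had a median of 0.33. Kitl, the ligand of KIT and the most abundant gene of this list, had 271 ± 89.0 normalized counts for VC and 328 ± 131 for AP (log2 fold change 0.26, adjusted p = 0.566). Among the 12 tested receptors and signal carriers (median 0.25), Met, the receptor of hepatocyte growth factor, rose by 1.17 and Adcy9, an adenylyl cyclase, by 1.99 on the log2 scale. Gnas, which encodes the G protein subunit behind the melanocortin receptor and is active in many cell types, fell by 0.89. Their adjusted p-values from limma were 0.0398, 0.0240 and 0.0379. The melanocortin receptor gene Mc1r itself had 31.1 ± 23.9 normalized counts for VC and 16.5 ± 8.87 for AP (SD, n = 4 each), with ranges that overlapped and no read in VC.4 (log2 fold change -0.03, adjusted p = 0.988 from limma); it was singled out after its values were seen.

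Of the 13 tested genes for melanosome channels, transporters and membrane proteins (median -0.16), 0 fell at an adjusted p under 0.05, and 3 were lower by the criteria of the study. These 3 were Trpm1, a cation channel gene and a known target of MITF, Slc24a5, a cation exchanger gene, and Tspan10, a tetraspanin gene. Trpm1 had 575, 352, 433 and 101.3 normalized counts with vehicle and 94.3, 116, 166 and 107 with AP, so that VC.4 was again low. For Slc24a5 the values were 124, 85.7, 102 and 78.8 with vehicle and 37.7, 50.7, 66.3 and 47.2 with AP, without overlap. Tspan10 had 67.3, 59.1, 62.8 and 16.9 normalized counts with vehicle and 16, 14.0, 15.9 and 10.01 with AP. Their log2 fold changes were -1.37, -0.95 and -1.66, with adjusted p-values of 0.0679, 0.0507 and 0.0502 from limma. Atp7a, the copper pump that supplies tyrosinase and other copper enzymes in many cell types, rose from 24.9 ± 8.34 to 108 ± 30.5 normalized counts (SD, n = 4 each; log2 fold change 2.08, SE 0.35, adjusted p = 0.00911 from limma).

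Genes for the general machinery of melanosome formation, which most cells use for lysosome-related organelles, were near the median of all genes, at 0.00 (log2 fold change) over 19 tested. Of these, Dtnbp1 fell by 0.98 (adjusted p = 0.0227) and Lyst rose by 1.43 (adjusted p = 0.0354, both from limma). Of 9 tested genes for melanosome transport and transfer (median 0.43), 3 rose and 0 fell. These were Rab27a, which ties melanosomes to the myosin motor (0.94, adjusted p = 0.0480), Dst, a linker gene of the cytoskeleton that also stands on the list of basal keratinocytes (1.56, adjusted p = 0.00896), and F2rl1, a keratinocyte receptor gene for melanosome uptake (1.96, adjusted p = 0.0104, all from limma). In these 6 lists, Zeb2, Atp7a, Dst and F2rl1 kept an adjusted p under 0.05 whichever library was left out, but with scaling by total counts Zeb2 was at -0.05 (adjusted p = 0.798). Csf1, Met, Adcy9, Gnas, Dtnbp1, Lyst and Rab27a lost theirs when some libraries were left out, and the largest adjusted p was 0.0790 for Adcy9 and between 0.0968 and 0.956 for the others over all alternatives.

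Promoter windows are shown for the 3 genes of the tyrosinase family. Each was lower without VC.4, a library singled out for its low values in these genes. With all 8 libraries limma called only Tyr (adjusted p = 0.0400), not Dct (0.115) or Tyrp1 (0.425). Windows from RefSeq (GRCm38.p6) matched 6 of the 10 genes, namely Tyr, Tyrp1, Dct, Oca2, Kit and Mitf, with 9 windows in all. The sequence CATGTG is the core of the M-box that MITF is known to bind. It was searched on both strands and found in 14.2% of all 32851 promoter windows of the same length. A longer form that contains it, TCATGTG, was found in 3.77% of them, and the related E-box sequence CACGTG in 7.15%. The core was found in the windows of 4 genes, Tyr, Tyrp1, Dct and Oca2, the longer form in those of the first 3, and the E-box sequence in none of the 9 windows. The match lay 21 bases before the start of Tyr (chr7:87493528-87493533) and 46 bases before that of Tyrp1 (chr4:80834167-80834172). Distances are counted from the RefSeq starts of the windows. For Tyrp1 that start lies inside the gene coordinates given above, and so does the match. Dct held 2 matches, 150 and 232 bases before its start, the latter on the other strand. A match of letters is a description and not a site. The windows of these 3 genes, 5′ to 3′ in the direction of the gene with the core in capitals on whichever strand it lies, are at chr7:87493463-87493762 (minus strand) for Tyr, chr4:80833963-80834262 (plus strand) for Tyrp1 and chr14:118052197-118052496 (minus strand) for Dct.
Tyr: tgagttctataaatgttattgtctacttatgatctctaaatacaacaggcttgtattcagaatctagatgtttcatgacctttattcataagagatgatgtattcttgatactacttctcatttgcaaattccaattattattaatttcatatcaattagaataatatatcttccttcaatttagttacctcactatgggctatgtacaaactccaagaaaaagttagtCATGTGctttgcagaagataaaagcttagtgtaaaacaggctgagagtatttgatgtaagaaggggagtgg
Tyrp1: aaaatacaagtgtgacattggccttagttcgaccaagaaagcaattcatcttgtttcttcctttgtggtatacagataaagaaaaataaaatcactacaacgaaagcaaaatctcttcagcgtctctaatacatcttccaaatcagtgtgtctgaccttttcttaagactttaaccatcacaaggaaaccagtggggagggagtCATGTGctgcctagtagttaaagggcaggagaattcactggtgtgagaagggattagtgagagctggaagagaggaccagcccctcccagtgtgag
Dct: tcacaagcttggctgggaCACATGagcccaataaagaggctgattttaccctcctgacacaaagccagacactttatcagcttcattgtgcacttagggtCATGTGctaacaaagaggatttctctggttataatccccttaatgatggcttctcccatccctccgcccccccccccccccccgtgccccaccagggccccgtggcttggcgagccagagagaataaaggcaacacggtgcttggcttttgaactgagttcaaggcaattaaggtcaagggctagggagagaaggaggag

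Markers of other cells that share some of these genes, or that lie next to melanocytes, were summed in each library. Mast cells also express Kit and Mitf. Of their 15 listed genes 13 were in the table and 10 were tested, of which 2 were lower and 0 higher in the AP group (Mcpt4, -1.08, adjusted p = 0.0280, and Tpsb2, -1.39, adjusted p = 0.0453, both from limma). Both lost the call when some libraries were left out, with adjusted p-values of up to 0.455 and 0.215 over all alternatives. Over the 10 tested genes the median log2 fold change was -0.395, with 6 genes below 0 and 4 above. The sum of the list was 1244, 779, 694 and 1427 normalized counts with vehicle and 671, 857, 459 and 410 with AP, with the highest value in VC.4, the library that was also highest in Mitf. Mcpt4 was the most abundant (383 ± 123 and 177 ± 43.8, SD, n = 4 each). Mrgprb2, which did not pass the filter and was not tested, was at 0 in every VC library. With AP it had only 3, 2, 22 and 16 reads, in libraries that held more reads. The part of mast cells in the values of Mitf and Kit was not tested.

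Schwann cells express Sox10. Of the 15 genes of their list given here, all were tested, with 2 lower and 2 higher in the AP group and a median log2 fold change of 0.05. The myelin gene Mbp (-0.91, adjusted p = 0.0320) and S100b (-1.71, adjusted p = 0.0149) fell, while Erbb3 (1.32, adjusted p = 0.0253) and Egr2 (0.99, adjusted p = 0.0267) rose (limma). S100b kept its call whichever library was left out and lost it with scaling by total counts (adjusted p = 0.0617), and the other 3 lost theirs when some libraries were left out. The sum was 3574, 5351, 4095 and 4577 normalized counts with vehicle and 5373, 4551, 3659 and 3968 with AP, with overlap, and Mbp was the most abundant of these genes in the VC group (1704 ± 459, and 903 ± 225 for AP, SD, n = 4 each). None was at 0 throughout a group. Their part in the Sox10 values was not tested. Of 6 listed genes of the retinal pigment epithelium, 3 were in the table, with 0 called by the adjusted p and Ttr lower by the criteria of the study (-2.29, adjusted p = 0.0583 from limma). They summed to 155, 109, 147 and 56.3 normalized counts with vehicle and 53.7, 85.7, 56.8 and 48.6 with AP, led by Lrat (68.3 ± 42.2 and 48.7 ± 10.5).

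Follicular melanocytes sit among the matrix cells of the growing hair. Over the 15 tested genes of the matrix, the inner root sheath and the hair shaft the median was -0.16 (log2 fold change), with Tchh higher (3.18, adjusted p = 0.0113 from limma) and, by the criteria of the study alone, Krt33a (3.12, adjusted p = 0.0547) and Krt71 (2.01, adjusted p = 0.0574). Their sum was 9945, 7083, 9908 and 2601 normalized counts with vehicle and 4902, 18904, 20424 and 7409 with AP. The list was split after its values were seen. The 6 genes of the inner root sheath (Tchh, Krt71, Krt25, Krt27, Krt28 and Gata3) summed to 6063, 4479, 5911 and 1583 with vehicle and to 3725, 16387, 17469 and 6017 with AP, with a median log2 fold change of 1.32. The other 9 genes summed to 3882, 2604, 3997 and 1018 with vehicle and to 1177, 2516, 2956 and 1392 with AP, with a median of -0.33. VC.4 was thus the lowest library in both sums, as it was in Tyrp1, Slc45a2 and Oca2. AP.3, the highest AP library in all 7 pigment genes, was also the highest AP library in both. Over all 8 libraries Krt71 was the most abundant gene of the list (794 ± 413 and 3489 ± 2478, SD, n = 4 each), and Krt28 was above it for VC (1284 ± 580). Tchh kept its call under all 19 alternatives. Whether the share of matrix cells set the pigment values of VC.4 and AP.3 was not tested. Of the 14 dermal papilla genes, 5 fell and 0 rose (median -0.92), namely Sox2 (-1.78, adjusted p = 0.0174), Alx4 (-1.37, adjusted p = 0.0404), Rspo3 (-1.45, adjusted p = 0.0212), Crabp1 (-2.17, adjusted p = 0.0167) and Wif1 (-1.24, adjusted p = 0.0282, all from limma). Sox2 kept its call whichever library was left out but not with scaling by total counts (adjusted p = 0.0751). Alx4, Rspo3, Crabp1 and Wif1 lost theirs when some libraries were left out, with adjusted p-values of up to 0.312, 0.217, 0.0550 and 0.396 over all alternatives. Bmp4 was lower by the criteria of the study alone (-0.89). The dermal papilla genes summed to 3809, 4299, 5983 and 4935 normalized counts with vehicle and 2113, 2146, 3399 and 1787 with AP, with Vcan the most abundant (1218 ± 585 and 802 ± 374). The sums did not overlap, but Crabp1 held 2254 of the counts of VC.4, and without this gene VC.4 (2681) was below AP.3 (3269). Their part in the pigment genes was not tested.

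Epidermal genes were read in the same way. Of 14 suprabasal genes, 12 rose in the AP group and 0 fell (median 3.11), from 2.25 for Calm4 to 4.41 for Hrnr, and the others were Krt1, Krt10, Krt77, loricrin, Ivl, Flg, Flg2, Krtdap, Dsg1a and Dsc1. All but loricrin and Flg2 kept the call under all 19 alternatives. Their sum was 6610, 13891, 9487 and 6233 normalized counts with vehicle and 46191, 43790, 128756 and 180286 with AP, led by Krt10 (2376 ± 1207 and 38536 ± 27358, SD, n = 4 each). Of 10 basal keratinocyte genes 5 rose and 0 fell (median 1.07), namely Itga6 (1.92), Itgb4 (1.11), Col17a1 (1.73), Lama3 (1.89) and Dst, with sums of 30324, 85248, 54535 and 25928 with vehicle and 59163, 58139, 108377 and 151724 with AP, and Krt14 was the most abundant (19974 ± 14052 and 37960 ± 20586). Of these 5, Itga6 and Dst kept the call under all alternatives. Suprabasal transcripts were thus present in all 8 libraries, with higher sums in each AP library. Of 9 fibroblast genes none was called by limma's adjusted p (median 0.15), and Dpt was lower by the criteria of the study (-0.85) and with DESeq2. Their sums were 121812, 82140, 83754 and 223956 with vehicle and 255414, 189723, 136745 and 98586 with AP, with Col1a1 the most abundant over all 8 libraries (36683 ± 21309 and 55218 ± 24981) and Col3a1 above it for VC (37553 ± 21362). VC.4 was the highest VC library in this list and the lowest in the epidermal lists. The part of this tissue makeup in the melanocyte genes was not tested.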

How the data were processed

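Messenger RNA from 4 AP and 4 VC skin samples was sequenced. The authors used STAR (genome mm10), featureCounts for counts per gene (the labels name HTSeq) and DESeq2 for normalization. The deposited signal values are counts divided by 1 size factor per library, and 100% of the 150160 values were whole multiples of 1 step per library (within 0.01 reads), so reads could be recovered. The authors' own comparison columns (fold changes and p-values) were not used.

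Values were compared as log2(value + 1) with limma 3.58.1 (empirical Bayes with an intensity trend, R 4.3.3), and the steps were tested on simulated data. edgeR 4.0.16 (quasi-likelihood, TMM) on the recovered reads called 1715 genes at an adjusted p under 0.05, and DESeq2 1.42.0 called 3061. Further alternatives were pseudocounts of 0.5 and 5, no filter or a minimum of 10, no trend, 3 other scalings, each library left out, and a lowess trend on exon length removed, which was added after seeing the data. Coordinates and exon lengths came from GENCODE M21. The members and gene lists were chosen with earlier results of these data known. Of the listed genes of other cell types, 2 are not reported here and were taken out of their list, and so of its counts, median and sum, after the values were seen. Named were all 10 members, list genes past either criterion, the most abundant gene of each list of other cells and the 5 genes most like Dct, Mitf, Sox10 and Kit; a few others were singled out after their values were seen. Dixon's test was used to find libraries far from the others of their group.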

Additional observations from a re-analysis of the deposited data

Results flagged for a closer look

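In 70 groups of 4 libraries searched for a library far from the others, 2 had one, and chance gives about 1 in 20 groups. AP.4 was far below the other AP libraries in Mitf, with 83.0 normalized counts beside 115, 118 and 113. Leaving it out moved the log2 fold change of Mitf from -0.72 to -0.60 (adjusted p = 0.119 from limma). VC.2 was above the other VC libraries in the sum of the 3 lineage factors, with 420 normalized counts beside 387, 391 and 391.9, and the AP libraries were at 226 to 355. VC.4, the lowest VC library in 6 of the 7 pigment genes, was not among them in any of the 7.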

How the results depend on the processing

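With scaling by total counts, which include the mitochondrial reads, 70 genes were lower and 8657 higher (limma, adjusted p under 0.05; 99.2% higher, beside 61.3% with the deposited scaling and 49.9% with the upper quartile). Of the melanocyte genes, 1 was then lower by the adjusted p and by the criteria of the study (Mlana) and 1 was higher (Kit, 0.91). The medians were 0.36 for the lineage factors and -0.25 for the pigment genes, and the sign turned for Mitf (0.15), Sox10 (0.36), Tyrp1 (0.37), Dct (0.037), Slc45a2 (0.63) and, among the listed genes past a criterion, Dpt (0.0246). This scaling moved the median of all genes by 0.84, and 49 of the 75 listed genes below 0 were above 0 with it. Relative to that median, the values with it and with the deposited scaling were -0.76 and -0.78 for Mitf, -0.54 and -0.57 for Sox10, -0.53 and -0.55 for Tyrp1, -0.86 and -0.89 for Dct, -0.27 and -0.26 for Slc45a2 and 0.01 and -0.01 for Kit. These pairs are close by construction, since 1 factor per library shifts all genes nearly alike. Without the intensity trend, 216 genes were lower and 376 higher, and 1 melanocyte gene was lower. This count was also 1 with scaling by total counts without mitochondrial genes, beside 3.38% of all genes lower and 5.99% higher by the adjusted p. With that scaling 4 melanocyte genes were lower by the criteria of the study, for which no share of all genes is given. Mitf was then at -0.68 (adjusted p = 0.0611), Tyr at -1.33 (0.0525) and Pmel at -1.31 (0.0623, all from limma). DESeq2 gave 1394 lower and 1667 higher genes and 5 lower melanocyte genes, Dct added. Kit was at -0.0135 with the upper quartile and at -0.21 with the trend on exon length removed.

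With each library left out, 96 to 812 genes were lower and 211 to 1061 higher by the adjusted p (lowest without AP.3). Of the melanocyte genes, 1 to 5 were lower, or 1 to 6 by the criteria of the study (highest without VC.4). For these fits no share of all genes by the criteria of the study is given. The median of the pigment genes ranged from -1.74 to -0.72, Kit from -0.0855 to 0.27 and Slc45a2 from -0.73 to 0.0731. Of the 39 listed genes with an adjusted p under 0.05, 18 kept it whichever library was left out. The causes were not tested. No paired analysis was possible because the columns are not tied to individual mice and the sample titles of the groups share no numbers. Oca2 had 1 to 47 reads per library and Slc45a2 5 to 73, and the part of depth in their spread was not tested.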
